A study of Mus musculus with 60 samples.

Results

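The genes described here encode the proteins of the mitochondrial ribosome, and were taken as every gene whose symbol begins Mrpl or Mrps followed by a digit. The deposited count table held 76 such genes among 22869 gene symbols, 47 of them named Mrpl and 29 named Mrps. By the known structure of the ribosome, 49 of the 76 belong to the large subunit and 26 to the small subunit. Mrps30 and Mrps18a are named for the small subunit but are large-subunit proteins. Mrps36 is now known as a subunit of the alpha-ketoglutarate dehydrogenase complex and was placed in neither subunit.

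Mitochondria translate the few proteins encoded in their own genome, all of them subunits of oxidative phosphorylation, on a ribosome whose RNAs are mitochondrial and whose proteins are all encoded in the nucleus, made in the cytosol and imported. Some of these proteins have counterparts in the bacterial ribosome and others are specific to mitochondria. Microglia, the resident macrophages of the brain, mature over the late embryonic and postnatal period and use both glycolysis and oxidative phosphorylation.

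RNA sequencing was performed on microglia of C57BL/6N mice of both sexes at embryonic day 18 (E18), postnatal days 4, 14 and 60 (P4, P14, P60). Animals at E18, P4 and P14 were untreated, and those at P60 had received saline or lipopolysaccharide (LPS), a component of the bacterial outer membrane that activates macrophages. By library title there were 3 female (F) and 4 male (M) libraries at E18, 4 and 4 at P4, 10 and 10 at P14, 7 and 5 at P60 with saline, and 6 and 7 at P60 with LPS. The labels name neither the brain region nor the way the cells were isolated, neither the dose nor the timing of LPS, nor whether each library came from its own animal, so p-values measure only the spread between libraries.

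The 60 libraries held 802016 to 3497454 counts (median 1907008). Levels below are CPM, the counts of a gene per 1000000 counts in a library. The title and the sex label disagreed for 10 libraries, and the library labelled M_E18 4 had 0 counts of Y-linked genes and 132 CPM of Xist. The other M-titled libraries had at least 375 Y-linked counts and at most 27.5 CPM of Xist. F-titled libraries had at most 106 Y-linked counts and at least 1091 CPM of Xist. Apart from M_E18 4, these genes thus followed the title where title and sex label disagreed. Fits with the sex label group those libraries against these genes and are given as alternatives only. The sex label of M_E18 4 is F, and its 0 Y-linked counts lay below those of every other M-titled library. By title it was kept among the M libraries. Its Xist level lay between those of the titled sexes, and its sex is not settled here. The main counts, medians and named folds that use E18 are therefore given with and without that library. Transthyretin (Ttr), the defining transcript of the choroid plexus, took over 10% of the counts in 3 libraries, M_E18 4 (24.8%), F_P60_Sal 6 (12%) and M_E18 3 (10.4%). Summed over 15 microglial markers, levels were 5305 to 8880 CPM at E18, 10351 to 23339 at P4, 18406 to 39385 at P14 and 26654 to 54317 at P60 with saline, so the labelled cell type was present at every stage and its markers were lowest at E18. The labels carry 17 dates, and none covers more than 1 stage or both treatments, so date and stage, and date and treatment, cannot be told apart. In these bulk libraries fewer cells of a type and less RNA per cell cannot be told apart either.

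Promoter sequences are shown for 5 of the members named below. They were picked because their promoters carry the motifs most often linked to genes of mitochondrial proteins. That all 5 match thus follows from the choice. RefSeq promoters on GRCm38.p6, from 250 bases before to 50 bases after the transcription start, were matched for 67 of the 76 members (73 windows). The motifs searched on both strands were the palindromic consensus of nuclear respiratory factor 1 (NRF1), CCGGAAG (ETS family, which includes GABPA) and AAGATGGCG (YY1); the ETS and YY1 letters can overlap by AAG. NRF1 letters occurred in 16.4% of the member windows and in 4.6% of all promoters, ETS letters in 32.9% against 8.86%, and YY1 letters in 11% against 1.40%. The CCAAT letters occurred in 41.1% of member windows and 37.4% of all promoters. GC box letters (GGGCGG) occurred in 52.1% against 35.7%, and TATA box letters (TATAAA) in 6.85% against 13.6%. Among promoters of coding genes alone the shares were 6.38% for NRF1, 11.6% for ETS and 1.83% for YY1. For the CCAAT, GC box and TATA box letters they were 38.2%, 46.2% and 12.6%. Of the 67 matched members, 12 held the NRF1 letters, 24 the ETS letters and 8 the YY1 letters. A match describes letters only and does not show that a factor was bound. Whether members with a motif changed differently from those without was not tested. Each sequence is written 5′ to 3′ on the strand of its gene, with matches in capitals.
Mrpl34 (chr8:71464676-71464975, + strand, ETS): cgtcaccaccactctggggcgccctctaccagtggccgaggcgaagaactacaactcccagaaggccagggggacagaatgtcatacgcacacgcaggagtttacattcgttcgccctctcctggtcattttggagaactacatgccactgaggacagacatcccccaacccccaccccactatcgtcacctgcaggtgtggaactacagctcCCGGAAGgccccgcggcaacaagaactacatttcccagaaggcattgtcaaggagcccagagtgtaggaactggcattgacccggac
Mrpl12 (chr11:120484387-120484686, + strand, NRF1): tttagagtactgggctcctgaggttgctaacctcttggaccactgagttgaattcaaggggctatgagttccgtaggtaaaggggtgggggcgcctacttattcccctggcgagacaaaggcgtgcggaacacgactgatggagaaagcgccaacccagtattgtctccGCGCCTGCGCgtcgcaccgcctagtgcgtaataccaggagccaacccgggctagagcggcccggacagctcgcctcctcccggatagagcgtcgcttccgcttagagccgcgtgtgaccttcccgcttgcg
Mrpl45 (chr11:97315466-97315765, + strand, NRF1 at 3 places): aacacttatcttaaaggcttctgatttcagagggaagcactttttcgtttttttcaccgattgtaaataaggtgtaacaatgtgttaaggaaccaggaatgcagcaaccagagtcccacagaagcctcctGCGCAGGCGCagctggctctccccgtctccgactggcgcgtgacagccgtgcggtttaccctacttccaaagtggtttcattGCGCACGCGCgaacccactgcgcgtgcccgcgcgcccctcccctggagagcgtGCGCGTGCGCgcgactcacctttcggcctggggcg
Mrps27 (chr13:99344536-99344835, + strand, ETS and YY1): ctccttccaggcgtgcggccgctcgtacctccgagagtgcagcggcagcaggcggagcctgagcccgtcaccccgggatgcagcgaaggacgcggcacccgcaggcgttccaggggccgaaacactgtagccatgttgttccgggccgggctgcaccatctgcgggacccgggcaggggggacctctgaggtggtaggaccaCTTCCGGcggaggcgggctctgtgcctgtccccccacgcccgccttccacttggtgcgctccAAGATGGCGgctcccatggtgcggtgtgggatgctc
Mrps18b (chr17:35916391-35916690, - strand, ETS): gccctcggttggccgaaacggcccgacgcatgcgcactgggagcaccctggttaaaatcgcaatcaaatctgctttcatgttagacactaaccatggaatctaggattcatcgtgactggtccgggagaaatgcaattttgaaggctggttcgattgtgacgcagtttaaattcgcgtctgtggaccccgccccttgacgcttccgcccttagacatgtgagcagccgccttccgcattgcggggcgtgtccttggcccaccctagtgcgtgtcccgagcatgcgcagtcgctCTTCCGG
The RefSeq window of Mrpl11, the member described next to Mrpl12 below, held none of the 3 sets of letters.

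Summed over the 76 genes, the mitoribosomal transcripts were highest at E18 and, among the untreated and saline stages, lowest at P14. The P60 libraries with LPS had a median just below that of P14, and the ranges overlapped. The sum was 1774 CPM in the lowest, 2596 in the median and 4575 in the highest E18 library, and 1498, 1557 and 1780 CPM at P4. It was 983, 1164 and 1747 CPM at P14, 1110, 1346 and 2517 CPM at P60 with saline, and 896, 1145 and 1591 CPM at P60 with LPS. The highest library, at 4575 CPM, was M_E18 4; without it the E18 sum ran from 1774 to 2812 CPM with a median of 2282. F_P60_Sal 6 was the highest P60 library, so the highest library at E18 and at P60 with saline was each time one with over 10% of its counts in Ttr. Their part in the sums was not tested. The 8 P4 libraries overlapped with E18 only through P4's highest library, at 1780 CPM, and E18's lowest, at 1774.

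**Figure D1:**
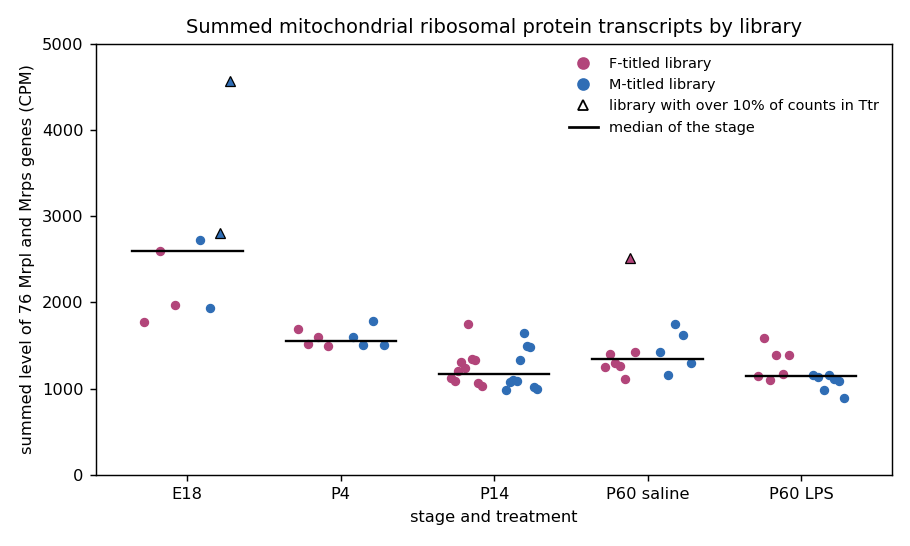
Summed level of the 76 mitoribosomal protein genes in CPM (vertical axis) in each of the 60 libraries by stage and treatment, coloured by titled sex, with a line at each stage's median and triangles for libraries with over 10% of counts in Ttr. M_E18 4 is at 4575 CPM, above the other 6 E18 libraries at 1774 to 2812.

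Single genes followed the same order. Of the 74 members that passed the filter on low counts in the developmental fit, 68 (91.9%) had their highest stage median at E18, against 47% of all genes tested, and 57 (77.0%) had their lowest at P14, against 30.4%. Without M_E18 4, 66 members were highest at E18 and 57 lowest at P14. Mrpl23, an exit-tunnel protein, and Mrps36 did not pass the filter: neither exceeded 3.08 CPM in any library. Mrpl23 has a processed pseudogene identical to it over 540 bases, and Mrps36 has a pair with about 97.1% and 97.4% identity, so the counts of both are uncertain. In all, 11 members have a match of at least 95% identity over at least 50% of their transcript in another annotated transcript. For some, among them Mrpl22, Mrpl42 and Mrps21, the match is a processed pseudogene. For others, among them Mrpl53, Mrps18b and Mrps25, it is a gene that shares their exon bases at the same place. The counts of both kinds are uncertain. The ratio of large-subunit to small-subunit sums stayed between 1.58 and 2.32 (median 1.97) over all libraries.

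Per kilobase of transcript, the levels of the members spanned a wide range in their mean over all 60 libraries, which pools stages of different level. Mrpl24, at the exit tunnel, was the highest with a mean of 64.7 CPM per kilobase, followed by Mrps6 (56.9), a small-subunit protein with a bacterial counterpart, Mrpl20 (43.4) and Mrps21 (42.7). At E18 the order of the first 2 was turned, with 129.6 ± 135.0 CPM per kilobase (SD, n = 7) for Mrps6 and 91.8 ± 59.3 for Mrpl24, or 81.1 ± 46.3 and 70.1 ± 16.9 (n = 6) without M_E18 4, which is within the spread between libraries. The lowest means were Mrpl47 (2.79), Mrps26 (2.48), Mrps36 (0.945) and Mrpl23 (0.504). The transcripts are short, with a median of 1224.5 bases against 2317 for all genes, and Mrps21 is the shortest at 405 bases. Exon bases are shared with another annotated gene in 25 members. Mrpl24 shares 594 of its 1226 bases with Rrnad1, and Mrpl19 shares 1962 with Gcfc2, both on the opposite strand. Whether the counting used strand is not stated, so reads of such pairs may not be told apart.

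Between E18 and P4, 43 of the 74 members fell and 1 rose (adjusted p under 0.05, edgeR's quasi-likelihood test with Benjamini-Hochberg adjustment over all genes tested). Of all genes tested, 22.7% fell and 25.5% rose. The median log2 fold change of the members was -0.63, against 0.03 for all genes, and 72 of the 74 were negative, as were 6762 of all 13853 genes. Both subunits took part, with 27 of 48 large-subunit and 16 of 26 small-subunit members falling. Members with a bacterial counterpart fell in 29 of 45 cases and mitochondria-specific members in 14 of 29. Without the library labelled M_E18 4, 31 members fell (22.6% of all genes) and 0 rose (21.5%), with a median of -0.48. Those that fell were then 11 of 29 large-subunit members with a bacterial counterpart and 10 of 19 without, and 7 of 16 and 3 of 10 in the small subunit. Without both E18 libraries that had over 10% Ttr, 21 fell (21.6% of all genes) and the median was -0.42. The size of the drop thus depends on those E18 libraries. So does the excess of the falling share over that of all genes, which was smallest without both. The direction of the median held in each of these fits. With the summed level of 9 choroid plexus genes as a covariate, 44 fell and 1 rose (23.8% and 28.1% of all genes), with a median of -0.56 against 0.05.

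**Figure D2:**
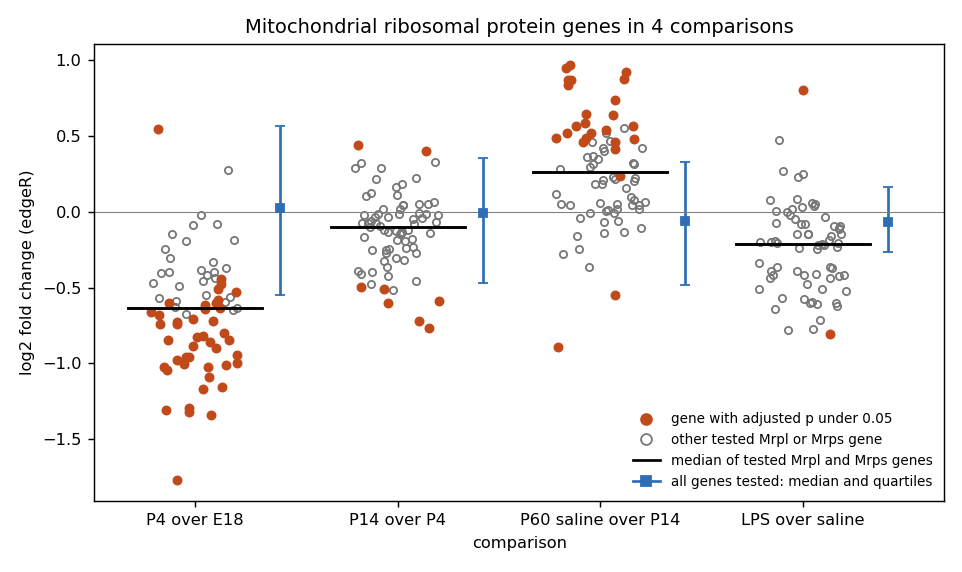
Log2 fold change of each tested member (points) in the stage comparisons and in LPS over saline, filled where the member passed the test, with a line at the members' median and a square with quartile bars for all genes tested. The P4 over E18 points sit mostly below 0, with a median of -0.63, and the P60 over P14 points mostly above 0, with a median of 0.26.

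Of the 4 proteins of the stalk, which brings translation factors to the ribosome, 3 fell, with and without M_E18 4. Mrpl12, the multi-copy stalk protein, was at 24.6, 56.9 and 90.6 CPM (lowest, median, highest) at E18 and at 15.5, 20.9 and 25.4 CPM at P4. Only the lowest E18 library, F_E18 3, lay within the P4 range. Mrpl12 changed by -1.17 ± 0.26 (log2 ± SE, adjusted p = 0.000293), and by -0.999 ± 0.25 without M_E18 4. Mrpl11, at the stalk base, was at 33.1, 61.4 and 111 CPM at E18 and at 21.5, 26.4 and 29.2 CPM at P4. Every E18 library of Mrpl11 lay above every P4 library, and the change was -1.16 ± 0.25 (adjusted p = 0.000228), or -0.94 ± 0.23 without M_E18 4. Mrpl53, a mitochondria-specific stalk protein, was at 8.59, 15.4 and 51.9 CPM at E18 and 4.95, 7.28 and 10.0 CPM at P4. Its libraries overlapped only at F_E18 1, and it changed by -1.34 ± 0.32 (adjusted p = 0.000544), or -1.01 ± 0.28 without M_E18 4. An annotated transcript named Gm42688 holds all 695 of its bases. Mrpl10, the protein that anchors the stalk, did not pass the test (-0.15 ± 0.17, adjusted p = 0.481).

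Mrpl34, a small large-subunit protein with a bacterial counterpart, fell by the largest factor of the members. It was at 6.44, 17.1 and 40.2 CPM at E18 and at 3.50, 4.82 and 9.34 CPM at P4. F_E18 1 was the only E18 library within the P4 range. The change was -1.77 ± 0.33 (adjusted p = 2.61e-05), and -1.53 ± 0.31 without M_E18 4. Mrpl34, Mrpl11, Mrpl12, Mrpl53 and the bacterial-type protein Mrpl55 (-1.32 ± 0.34, adjusted p = 0.00135) passed the test in each of 25 alternative settings. Mrps33, a mitochondria-specific small-subunit protein, changed by -1.31 ± 0.42 (adjusted p = 0.009) and missed the threshold without M_E18 4 (-0.87 ± 0.38, adjusted p = 0.0604) and without the E18 libraries over 10% Ttr (adjusted p = 0.174). Mrpl1, which forms the mobile stalk on the opposite side of the large subunit, was the member that rose (0.54 ± 0.23, adjusted p = 0.0443). Its levels were 10.2, 13.7 and 14.9 CPM at E18 and 12.4, 18.6 and 20.6 CPM at P4, with overlap, and it passed in only 4 of 25 alternatives, not with the replicate number as a block and not without M_E18 4 (adjusted p = 0.097).

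Around the exit tunnel, where the growing protein leaves the ribosome, Mrpl17 (-0.60), Mrpl22 (-0.89), Mrpl24 (-0.53) and Mrpl47 (-0.73) fell. Mrpl45, which tethers the ribosome to the inner membrane, was at -0.40 ± 0.17 (adjusted p = 0.0537). Without M_E18 4 the calls differed: Mrpl47 (-0.73, adjusted p = 0.0365) and Mrpl45 (-0.40, adjusted p = 0.0499) passed, and Mrpl17 (-0.36, adjusted p = 0.0545), Mrpl22 (-0.67, adjusted p = 0.0966) and Mrpl24 (-0.15, adjusted p = 0.428) did not. Of 5 members listed here for the central protuberance, at the top of the large subunit, Mrpl38 (-0.71) fell. The list does not hold every protein of that part, so its count does not describe the protuberance as a whole. Mrpl18 (-0.41), Mrpl40 (-0.40), Mrpl46 (-0.41) and Mrpl48 (-0.60) did not pass. Mrps30 fell by 0.60 on the log2 scale, and Mrps18a, a large-subunit relative of the bacterial S18 protein, by 0.74. Without M_E18 4, Mrpl38 (-0.52), Mrps30 (-0.54) and Mrps18a (-0.59) still passed, and the other 4 members listed for the protuberance did not.

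In 4 members, Mrpl11, Mrpl15, Mrpl30 and Mrpl38, every P4 library lay below every E18 library, which is 5.41% of the members against 6.34% of all genes tested. In 0 members did the libraries separate the other way (7.38% of all genes). Without M_E18 4 Mrpl50 joined them, and 5 members (6.76%) separated against 12.6% of all genes (7.78% of genes, and no member, separated the other way). These 5 were named after their values were seen. The share of separated members is thus near or below the background.

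The fall at P4 was larger in shorter transcripts. Members of at most 1500 bases fell in 30 of 46 cases (65.2%) with a median of -0.74, where 39.6% of all genes of that length fell with a median of -0.51. Of the 28 longer members, 13 fell and 1 rose. Across the 74 members, Spearman's correlation of length with the log2 fold change was 0.44, against 0.26 across all genes. It was 0.35 without M_E18 4 and 0.29 without both E18 libraries over 10% Ttr. The points share libraries and genes are not independent replicates, so this is a description. The share of all counts in transcripts of at most 1500 bases was 45.0% in M_E18 4, 27.9% in F_P60_Sal 6 and 22.6% in M_E18 3, against a median of 10.9% over all libraries. Its part in the fall was not tested.

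**Figure D3:**
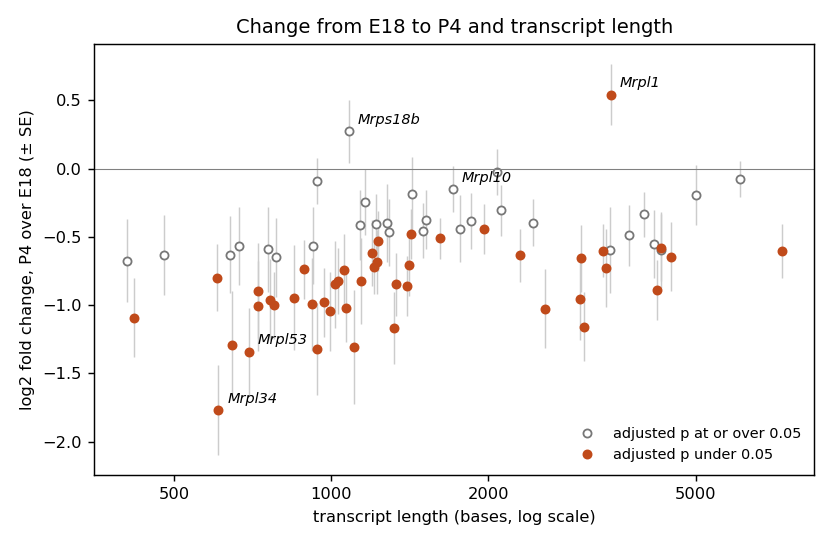
Transcript length in bases (log axis) against the log2 fold change of P4 over E18 for the tested members, each point 1 gene with its standard error as a bar, filled where the adjusted p was under 0.05. Members of at most 1500 bases have a median of -0.74.

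Markers of other cell types also differed between these stages. Neuronal markers (15 genes) summed to 660 to 3277 CPM at E18 and 37.4 to 200 at P4, and red blood cell markers (8 genes) to 350 to 2121 CPM at E18 and 58.6 to 449 at P4. Choroid plexus markers (9 genes) summed to 7210 to 256487 CPM at E18 and 14277 to 66265 at P4. In E18 and P4 libraries none of the neuronal or choroid plexus markers was at 0 throughout. Apart from the choroid plexus covariate above, their part in the fall was not tested.

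Between P4 and P14 few members changed: 2 rose and 6 fell of 74. Of all genes tested, 20.6% rose and 20.8% fell, and the members' median was -0.10 against -0.01. With DESeq2's median-of-ratios (RLE) scaling, 0 rose and 13 fell, against 15.8% and 26.2% of all genes. That scaling moves the median of all genes by -0.11, and the members' median relative to all genes is -0.09 under both. Under it the median of all genes also moved by -0.12 for P4 over E18, where 57 members fell (27.8% of all genes), and the members' relative median there was -0.67 against -0.66. No member's libraries separated between P4 and P14 (1.55% of all genes higher, 4.55% lower).

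Among those that fell, Mrpl45 was at 27.2, 29.4 and 33.8 CPM at P4 and 9.44, 16.7 and 28.7 CPM at P14. Only 1 of the 20 P14 libraries reached the P4 range, and the change was -0.60 ± 0.14 (adjusted p = 0.000589). Mrpl18, of the central protuberance, was at 16.0, 20.2 and 24.9 CPM at P4 and 2.55, 8.84 and 17.4 CPM at P14. In 3 of the 20 P14 libraries it reached the P4 range, and the change was -0.77 ± 0.18 (adjusted p = 0.000705). Mrpl44, a mitochondria-specific protein related to ribonuclease III enzymes, was at 10.7, 12.8 and 16.6 CPM at P4 and 2.27, 6.18 and 13.7 CPM at P14, and changed by -0.72 ± 0.22 (adjusted p = 0.00701). Mrpl19 (-0.59 ± 0.18, adjusted p = 0.00788) also fell. These 4 genes passed the test in each of 20 alternatives. Mrps27, a pentatricopeptide-repeat protein of the small subunit, changed by -0.49 and passed in 19 of 20, and Mrpl49 (-0.51) in 14. Of the members that rose, the small-subunit protein Mrps15 (0.40 ± 0.14, adjusted p = 0.0171) passed in 12 of 20, and Mrpl24 (0.44 ± 0.18, adjusted p = 0.0456) in 3. Leaving out any 1 of the 8 P4 libraries left 0 or 1 member that rose, while 2218 to 2820 of all genes rose.

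**Figure D4:**
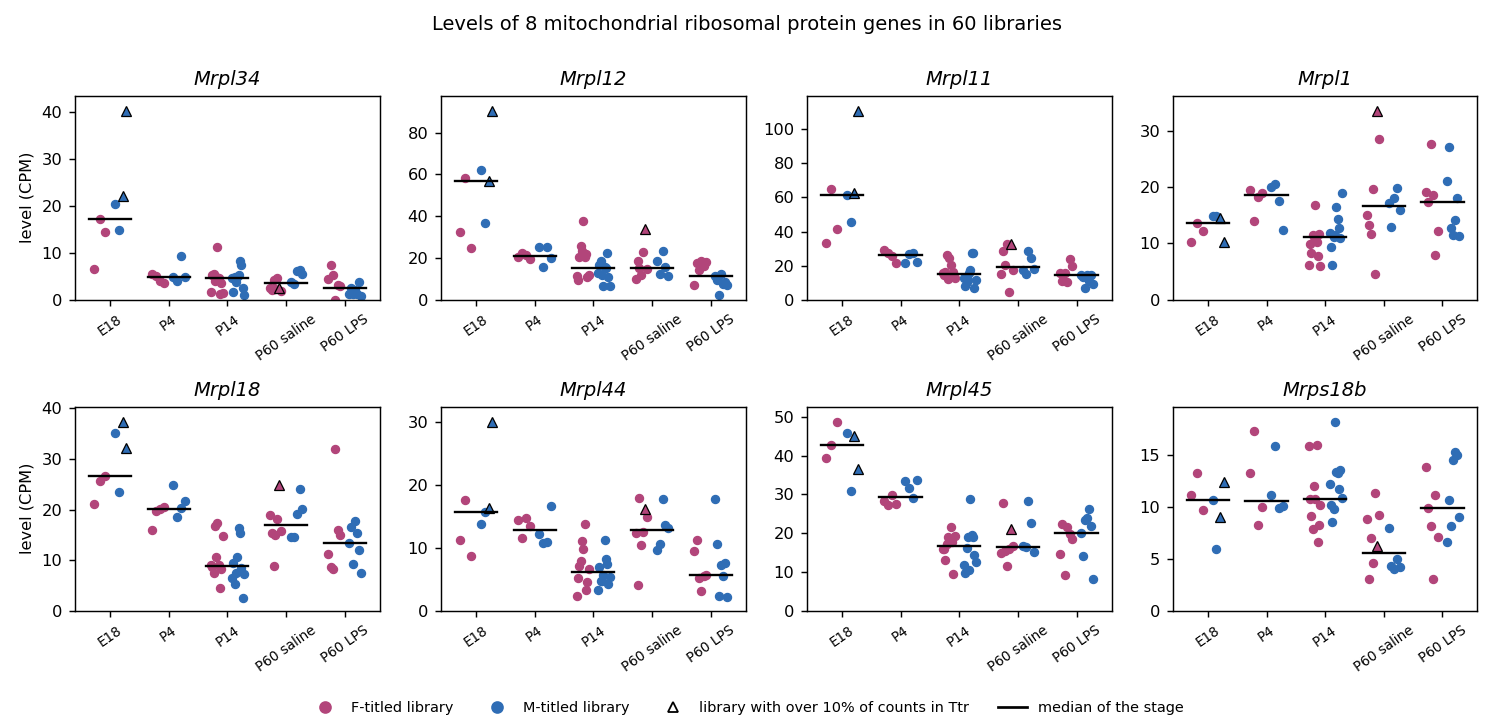
Levels in CPM of 8 members in every library by stage and treatment, each point 1 library coloured by titled sex, with lines at the medians and triangles for libraries over 10% Ttr. Mrpl34, Mrpl12 and Mrpl11 are highest at E18, and Mrpl45, Mrpl18 and Mrpl44 are lower at P14 than at P4.

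Between P14 and P60 with saline, 23 of 74 members rose (31.1%) and 2 fell. Of all genes tested, 18.5% rose and 25.7% fell, and the members' median was 0.26 against -0.06. Of the large-subunit members 16 of 48 rose, and of the small-subunit members 7 of 26. Members with a bacterial counterpart rose in 12 of 45 cases and mitochondria-specific ones in 11 of 29. With the choroid plexus covariate 12 members rose and 3 fell (15.9% and 26.6% of all genes), with a median of 0.14. Leaving out the P14 libraries of 1 label date at a time gave 18 to 26 that rose, beside 2303 to 2738 of all genes. Those dates ranged from 983 to 1310, 1245 to 1747 and 990 to 1093 CPM in summed level. No member's libraries separated (0.527% of all genes higher, 1.81% lower).

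Mrpl18 and Mrpl44, which had fallen from P4 to P14, rose from P14 to P60, in comparisons that share the P14 libraries. Mrpl18 was at 8.91, 17.0 and 24.9 CPM at P60, and rose by 0.84 ± 0.17 (adjusted p = 8.86e-05). Mrpl44 was at 4.11, 12.8 and 17.8 CPM and rose by 0.97 ± 0.20 (adjusted p = 0.000134). In both genes the ranges at P14 and P60 overlapped. Mrps31, a mitochondria-specific small-subunit protein, was at 4.90, 7.83 and 14.4 CPM at P14 and 9.11, 15.9 and 24.9 CPM at P60. Its lowest P60 library stood above the P14 median, and the change was 0.87 ± 0.16 (adjusted p = 2.4e-05). Mrpl10 was at 13.2, 21.4 and 32.8 CPM at P14 and 22, 32.4 and 44.4 CPM at P60, and rose by 0.56 ± 0.12 (adjusted p = 0.000244). Mrpl42, mitochondria-specific, rose by 0.92 ± 0.21, and these 5 passed in each of 17 alternatives. Mrps33 rose by 0.94 ± 0.32 (adjusted p = 0.0156) but reached 0.109 with the choroid plexus covariate. In the central protuberance, Mrpl40 (0.87), Mrpl46 (0.56) and Mrpl18 rose, and at the exit tunnel Mrpl22 (0.86) and Mrpl47 (0.54). Mrpl45 did not pass the test between P14 and P60 (11.6, 16.5 and 28.3 CPM; 0.18 ± 0.13, adjusted p = 0.263). Mrpl54, a mitochondria-specific large-subunit protein, fell by 0.55 on the log2 scale (adjusted p = 0.02) and missed the threshold without the P14 libraries of label date 28 February (adjusted p = 0.147). Leaving out M_P60_Sal 5 left 1 of the members that fell.

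Over the whole interval from E18 to P60 with saline, 44 of 74 members fell and 2 rose. Of all genes tested, 34.8% fell and 31.4% rose, and the median was -0.56 against -0.08. Without M_E18 4, 30 of the 74 fell and 2 rose (35.4% and 30.4% of all genes), so the share that fell was nearer to the background. Without both E18 libraries over 10% Ttr, 18 fell and 5 rose (34.3% and 29.1% of all genes), which is no more than the background. Mrpl34 (-1.88 ± 0.31, adjusted p = 1.03e-06), Mrpl28 (-1.36 ± 0.24, adjusted p = 2.06e-06) and Mrpl12 (-1.23 ± 0.24, adjusted p = 2.09e-05) fell in each of 22 alternatives, as did Mrpl45 (-0.81), Mrps24 (-1.20) and Mrpl30 (-1.16). Mrpl1 (0.79 ± 0.22, adjusted p = 0.0013) rose in all 22 and Mrps15 (0.52 ± 0.16, adjusted p = 0.00354), a small-subunit protein with a bacterial counterpart, in 21. Mrps15 was at 19.4, 23.6 and 27.2 CPM at E18 and 16.7, 26.1 and 42.4 CPM at P60, with overlap.

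Mrps18b, the second of the 3 relatives of bacterial S18 and specific to mitochondria, fell where 23 members rose. It was at 5.96, 10.7 and 13.2 CPM at E18, 8.24, 10.6 and 17.3 at P4, 6.61, 10.8 and 18.2 at P14 and 3.08, 5.61 and 11.4 at P60 with saline. It fell from P14 to P60 by 0.89 on the log2 scale (SE 0.18, adjusted p = 8.9e-05), in each of 17 alternatives, while the P4 over E18 change (0.27 ± 0.23, or 0.36 ± 0.22 without M_E18 4) did not pass. The third relative, Mrps18c, changed by 0.21 ± 0.22 from P14 to P60 (adjusted p = 0.461) and Mrps18a by 0.34 ± 0.16 (adjusted p = 0.0764). Mrps18b starts 45 bases from the gene Ppp1r10 on the opposite strand, and shares 638 exon bases with the antisense gene Gm16279. Neither labels nor notes say whether the counting used strand, so reads of Mrps18b and Gm16279 may not be told apart. Ppp1r10, a regulatory subunit of protein phosphatase 1, rose by 1.24 ± 0.29 from E18 to P4 (1.02 ± 0.28 without M_E18 4) and fell by 0.53 from P14 to P60 (adjusted p = 0.0292). Across libraries within a stage, Pearson's r of Mrps18b with Ppp1r10 on log2(CPM + 0.5) lay between -0.39 and 0.0562, with no adjusted permutation p below 0.441. Without the 2 libraries farthest from the median of Ppp1r10 it turned to 0.908 at E18, on 5 libraries, and was 0.15, -0.0354, 0.309 and -0.31 at P4, P14, P60 with saline and P60 with LPS. The relation at E18 thus rests on single libraries.

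At P60, LPS changed few members: 1 of 70 tested rose and 1 fell, against 10.5% and 3.95% of all genes. The members' median was -0.21, against -0.07 for all genes, and 57 of 70 were negative, with 12 at an unadjusted p under 0.05. No share of all genes is set beside these counts, so they are not read further. Without F_P60_Sal 6, the only P60 library over 10% Ttr, the median was -0.11 against -0.04. The members' median relative to all genes was then -0.07, against -0.14 with that library. No member's libraries separated (1.25% of all genes higher, 0.0285% lower). Mrps18b was the member that rose: it was at 3.08, 5.61 and 11.4 CPM with saline and 3.09, 9.94 and 15.4 CPM with LPS. The groups overlapped over most of their range, and the change was 0.80 ± 0.24 (adjusted p = 0.0204). It missed the threshold without the LPS libraries of label date 8 April (adjusted p = 0.0768), and also without those of 10 April. Mrps16, a small-subunit protein with a bacterial counterpart, fell by 0.81 (adjusted p = 0.0456) and passed in 7 of 17 alternatives. Leaving out M_P60_Sal 2, 3, 4 or 5 ended that call.

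In the M-titled libraries alone, LPS raised 1 member and lowered 1 (11.9% and 7.57% of all genes), with a median of -0.35. Mrps18b was at 4.04, 4.21, 4.34, 4.99 and 7.97 CPM in the 5 M-titled saline libraries and at 6.65, 10.6 and 15.4 CPM (lowest, median, highest) in the 7 with LPS. Only M_P60_Sal 1, at 7.97 CPM, lay within the LPS range, and the change was 1.27 ± 0.34 (adjusted p = 0.00858), in each of 16 alternatives. Mrpl42 was at 17.3, 21.9, 36.8, 41.9 and 42.9 CPM with saline and at 6.24, 14.3 and 18.8 CPM with LPS. Its groups overlapped only at the lowest saline library, and it changed by -1.07 ± 0.38 (adjusted p = 0.0454), in 8 of 16 alternatives; leaving out M_P60_Sal 1, 3, 4 or 5 left 0 members lower. In the F-titled libraries 2 members had an unadjusted p under 0.05, a count with no share of all genes beside it. That count is not read further. After adjustment 0 members passed, and 0 by DESeq2, beside 5.06% of all genes, with a median of -0.10. That median changed sign, to 0.11 without libraries over 10% Ttr (0.02 for all genes) and to 0.07 with the sex label (0.01 for all genes). The sex label groups some libraries against their Xist and Y-linked counts. In the F-titled libraries Mrps18b changed by 0.33 ± 0.33 (adjusted p = 0.749). The difference between the sexes in the LPS change was tested itself. After adjustment 0 members passed (0.883% of all genes), and 0 by DESeq2, with Mrps18b not called (0.94 ± 0.47, adjusted p = 0.251). At an unadjusted p under 0.05 there was 1 member, which is not read further either. Neutrophil markers (10 genes) summed to 22.6 to 439 CPM with saline and 373 to 5820 with LPS, none at 0 throughout, and their part was not tested.

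Between M-titled and F-titled libraries of one stage, edgeR's quasi-likelihood test called 0 members at each stage. At E18 DESeq2 called 10 higher in M (2.72% of all genes by that tool), where edgeR called 0.0722% of all genes. An unadjusted p under 0.05 was seen in 45 members at E18. The shares of all genes given here are of adjusted calls. Counts of members at an unadjusted p between the sexes are therefore not read further. The E18 median difference of M over F was 0.81, but 0.29 without M_E18 4 and 0.16 without both libraries over 10% Ttr. With the sex label in place of the title it was -0.45. That label groups some libraries against their Xist and Y-linked counts. With it, 0 of all genes were called higher and 0 lower in M at E18. Leaving out M_E18 2 gave 39 members higher (11.8% of all genes), and leaving out M_E18 1 gave 16 (5.59%). Both libraries of label date 11 April were M-titled, at 2812 and 4575 CPM in summed level. Within the other dates that held both sexes, F was at 2596 and M at 2727 CPM (27 January), and F at 1968 and M at 1934 CPM (15 March), with 1 library per sex on each date. At P4 the median was 0.01 (0 at an unadjusted p under 0.05), at P14 -0.12 (4) and at P60 with saline -0.04 (1), with 0.0433% of all genes called at each and 0 members by DESeq2. With LPS the median was -0.28, with 6 at an unadjusted p under 0.05, 0 by DESeq2 and 0.142% of all genes called.

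The level of Mrps6 followed that of Ttr across libraries; the relation was computed for no other member. It was at 35.5, 63.2 and 356 CPM at E18, 31.5, 54.6 and 72.1 at P4, 14.4, 38.0 and 73.1 at P14, and 2.28, 40.4 and 73.7 at P60 with saline. The E18 maximum was M_E18 4, the library with the most Ttr. Pearson's r across libraries with Ttr, both as log2(CPM + 0.5), was 0.963 at E18 (n = 7, adjusted exact permutation p = 0.00066, Spearman's rho 1.0) and 0.901 at P4 (n = 8, adjusted exact permutation p = 0.00967, rho 0.833). It was 0.797 at P14 (n = 20, adjusted permutation p = 0.0003, rho 0.926), 0.977 at P60 with saline (n = 12, adjusted permutation p = 0.0003, rho 0.937) and 0.853 with LPS (n = 13, adjusted permutation p = 0.00066, rho 0.659). Without the 2 libraries farthest from the median Ttr, r was 0.978, 0.849, 0.877, 0.936 and 0.763 in the same order. Without M_E18 4 alone, r at E18 was 0.955 (n = 6). Of the 15 relations computed, those with Slc5a3, which shares 159 exon bases with Mrps6 on the same strand, gave r of -0.0607, 0.963, 0.666, 0.782 and 0.827. Without the 2 libraries farthest from the median of Slc5a3 these were -0.71, 0.957, 0.709, 0.701 and 0.794, and without M_E18 4 alone the E18 value was 0.598, so no relation with Slc5a3 is read at E18. Between E18 and P4, Mrps6 changed by -0.94 ± 0.38 (adjusted p = 0.0383), but by -0.33 ± 0.32 without M_E18 4 (adjusted p = 0.417), so its call rests on that library.

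**Figure D5:**
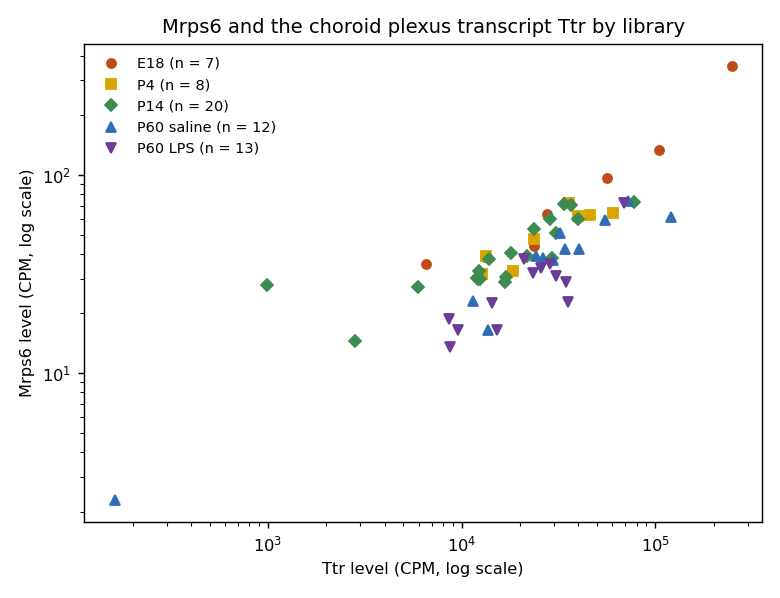
Mrps6 against Ttr, both in CPM on log axes, each point 1 library coloured by stage and treatment. Mrps6 follows Ttr within each group, with r between 0.797 and 0.977, and M_E18 4 is the highest point for both at 356 CPM of Mrps6.

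Genes around the mitoribosome were read from lists of the same pathway, beside the 22.7% of all genes that fell and the 25.5% that rose from E18 to P4. Of 7 mitoribosome proteins with other names, 5 fell and 0 rose between E18 and P4, among them Dap3 (-0.82), a GTP-binding small-subunit protein, and Chchd1 (-1.18). Of 14 mitochondrial translation factors 3 fell and 2 rose: Tufm (-0.89), the elongation factor that carries tRNA, and Mtif3 (-0.59), an initiation factor, fell, and Gfm2 (1.39), which recycles ribosomes, and Lrpprc (0.34), which stabilises mitochondrial mRNA, rose. Of 19 assembly factors 3 fell and 1 rose (Ngrn -1.21, Gtpbp5 -0.77, Mterfd1 0.51). Of 17 mitochondrial aminoacyl-tRNA synthetases 5 fell and 2 rose (Fars2 -0.88, Hars2 -0.52, Iars2 0.56, Wars2 0.49). Of 7 genes of mitochondrial DNA transcription and replication 2 fell and 1 rose: the helicase Peo1 (-0.62), the packaging factor Tfam (-0.42) and the polymerase Polg (0.50). Of 9 regulators 6 rose and 0 fell, with Gabpa (0.68), of the ETS family, and Sp1 (0.98) among them. Whether the regulators relate to the levels of the members was not tested. Of these lists, the share that fell among translation factors (21.4%), assembly factors (15.8%) and synthetases (29.4%) lay near or below that of all genes. Without M_E18 4 the counts that fell and rose were 4 and 0 of the mitoribosome proteins with other names, 3 and 1 of the translation factors, 4 and 1 of the assembly factors, 5 and 1 of the synthetases, 2 and 0 of the genes of mitochondrial DNA, and 0 and 5 of the regulators (22.6% and 21.5% of all genes). Lrpprc, Fars2, Wars2 and Polg were then no longer called.

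From P4 to P14, when 20.6% of all genes rose and 20.8% fell, few genes of these lists changed. Of the translation factors 2 rose and 1 fell, with Gfm2 (1.15) and the membrane insertase Oxa1l (0.30) rising and the elongation factor Gfm1 (-0.34) falling. Of the genes of mitochondrial DNA 3 rose and 0 fell, among them Polg (0.51) and Peo1 (0.47). Of the regulators 3 rose and 0 fell, among them Myc (0.85), a growth regulator, and Esrra (0.75), a nuclear receptor.

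Between P14 and P60, when 18.5% of all genes rose and 25.7% fell, 8 of 14 translation factors rose and 0 fell, Gfm1 (0.69) and Mtif3 (0.64) among them. Of the assembly factors 6 of 19 rose and 0 fell, such as Ngrn (0.87) and Gtpbp10 (0.83). Of the synthetases 4 of 17 rose and 0 fell, with Pars2 at 1.31 and Hars2 at 0.50, a share (23.5%) near that of all genes. Of the 7 mitoribosome proteins with other names Mrp63 rose (0.70) and Dap3 fell (-0.38), and of the genes of mitochondrial DNA Tfam rose (0.58) and Polg fell (-0.51). Of the regulators 2 rose and 4 fell, with Ppargc1a, a coactivator of mitochondrial genes, at 0.79, Myc at 0.77, Pprc1 at -1.14 and Nrf1 at -0.76. With LPS, 1 of 12 translation factors fell (Mtif3, -0.57 ± 0.15, adjusted p = 0.00966), and 2 of 9 regulators rose (Gabpb1 0.67, Pprc1 0.82), where 3.95% of all genes fell and 10.5% rose.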

How the data were processed

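RNA was sequenced from 60 microglial libraries, and the deposited table gives whole-number counts per transcript, made by the authors. Per the labels, RNA was extracted with Trizol and libraries came from a stranded polyA kit. Per the submitters' processing notes, CASAVA 1.8.2, mm9 and edgeR were used. Neither they nor the labels name an aligner or a counting program. Of the 28644 rows, 1 per gene symbol was used, the row marked as best or otherwise the one with the highest total. Members had 85 rows, 7 had more than 1 row, 4 had no mark, and for 2 the used row was not the one with most counts. Transcript lengths came from GENCODE vM21 and promoters from RefSeq, both on GRCm38, which is not the build of the counts.

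CPM was taken over all genes. edgeR 4.0.16 (R 4.3.3, limma 3.58.1) fitted TMM-scaled counts with a robust quasi-likelihood F test, two-sided, with filterByExpr by group and Benjamini-Hochberg adjustment over all genes tested at 0.05. The fit of development used 47 libraries in 8 groups (13853 genes, 74 members) and that of P60 used 25 libraries in 4 groups (10538 genes, 70 members; Mrpl21, Mrpl34, Mrps10 and Mrps28 were also filtered out). Stage and LPS comparisons weight both titled sexes equally. Neighbouring stage comparisons share the libraries of a stage. DESeq2 1.42.0 was an alternative, as were other scaling, filters, row choices, sex labels, left-out libraries and dates and a replicate block. On simulated counts the test recovered 55% of genes changed 2-fold for P4 over E18 and 79% for LPS over saline.

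In F_P4 and M_P4, libraries with the same replicate number share a label date in 4 of 4 pairs and deviate together from their group means (r 0.41 to 0.58), so the numbers pair those libraries. In F_P14 and M_P14 they share a label date in 10 of 10 pairs, with r over 0.1 in 9, and F_E18 and F_P4 correlate in 3 of 3 pairs (r 0.17 to 0.50) with no shared date.

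The text names, per comparison, up to 4 called members per direction by smallest p, up to 2 more by largest change, the 4 highest and 4 lowest per kilobase, the members of the stalk, exit tunnel, central protuberance and S18 lists, Mrps30 and Mrps36, and up to 2 called genes per direction of each pathway list. Members and lists were chosen with earlier results of these data known. Correlations across libraries used exact permutation tests below 10 libraries and 100000 resamples otherwise, with adjustment over 15 relations. The number of counts limits precision: members summed to 843 to 7757 counts per library.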

Additional observations from a re-analysis of the deposited data

Results flagged for a closer look

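Within 45 groups tested, 7 values stood far from the other libraries of their group, by the gap to the nearest library relative to the group's range; chance marks about 1 in 20 such groups. The summed level of the mitoribosomal genes was highest by such a gap in F_P14 5, at 1747 CPM, and in F_P60_Sal 6, at 2517 CPM, where Ttr took 12% of counts. Mrpl34 was also far above its group in F_P14 5, at 11.3 CPM. Mrps6 stood at 72.1 CPM in F_P60_LPS 2, above the other 5 libraries of that group. Mrps18b was at 7.97 CPM in M_P60_Sal 1 and at 18.2 CPM in M_P14 4, the highest of each group. Mrpl12 was the lowest of its group in F_P60_LPS 1, at 6.95 CPM.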

How the results depend on the processing

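No called result changed direction under these alternatives, and the cause of the shifts below was not tested. Some medians, which are not calls, did change sign, among them that of LPS in the F-titled libraries. Settings with the sex label group some libraries against their Xist and Y-linked counts. For P4 over E18, the count of members that rose (1) was 0 with DESeq2, RLE, no filter, rows summed and sex from the sex label. It was also 0 with the replicate block and both settings without libraries over 10% Ttr, and 0 to 1 when 1 library was left out. In the named settings with 0 members, 2673 to 3695 of all genes rose. The count that fell (43) was 21 without E18 libraries over 10% Ttr. For P14 over P4, the count that rose (2) was 0 with DESeq2, RLE, no filter and the replicate block. It was also 0 without the P14 dates of 24 February or 14 March. In these settings 1869 to 2518 of all genes rose. The count that rose was 1 with rows summed, the sex label or without 28 February, and 0 to 1 when 1 library was left out. The count that fell (6) was 13 with DESeq2 and RLE, 14 without all libraries over 10% Ttr and 11 without 28 February. Of all genes, 3760 of 13853 fell with DESeq2 and 3634 of 13853 with RLE. Without all libraries over 10% Ttr 3706 of 14043 fell, and without 28 February 3086 of 13863. For P60 over P14, the count that fell (2) was 1 without 28 February and 1 to 2 when 1 library was left out, and the count that rose (23) was 12 with the choroid plexus covariate. Of 13863 genes, 3293 fell without 28 February. For P60 over E18, the count that rose (2) was 1 with RLE and 5 without E18 libraries over 10% Ttr, and the count that fell (44) was then 18. With RLE 3650 of 13853 genes rose. At E18, members higher in M (0) numbered 10 with DESeq2 and 0 to 39 when 1 library was left out. For LPS over saline, the count that fell (1) was 4 with DESeq2, 0 with no filter, with the highest-total row and without all libraries over 10% Ttr, 2 with rows summed, 6 with the sex label, 3 with the replicate block and with the covariate, and 0 to 2 when 1 library was left out; the count that rose (1) was 0 without 8 or 10 April. In M-titled libraries the count that fell (1) was 3 with DESeq2, 0 with the highest-total row and without 9 or 10 April, 12 with the sex label, 7 without libraries over 10% Ttr and 0 to 1 when 1 library was left out, and the count that rose (1) was 2 without 8 April. The difference of LPS between sexes had 1 member lower (0) without libraries over 10% Ttr, and 224 of 10573 genes. For LPS over saline, 565 genes fell with DESeq2, 422 with the sex label, 324 with the replicate block and 499 with the covariate, each of 10538. Summed rows gave 483 of 10906. In M-titled libraries 956 genes fell with DESeq2 and 560 with the sex label, both of 10538. There 950 of 10573 fell without libraries over 10% Ttr, and 1293 of 11242 rose without 8 April. Summing rows of a gene changed the median summed level to 1194 CPM at P4, 891 at P14 and 895 with LPS. The replicate block gave 45 members lower for P4 over E18, 7 for P14 over P4, 17 higher for P60 over P14 and 45 lower for P60 over E18. Of 13853 genes the block gave 3148, 2078, 2296 and 4795 in the same order. Between the sexes at P4 and at P14, where same-numbered libraries share a label date, 0 members passed with the replicate block and without it. Among the alternative values of these counts and medians, 341 stayed within 1.5 times or within the spread and 82 did not. The alternatives without all libraries over 10% Ttr, with the covariate and without single P14 dates were chosen after seeing the data. Members with few counts, such as Mrpl23 and Mrps36, lie below what this depth can resolve.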
